A study of Mus musculus with 12 samples.

Results

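The mitochondrial ribosomal protein genes were followed here as a group in RNA from mouse macrophages of 2 genotypes on 2 diets. Members were all genes of the deposited count table whose symbol starts with Mrpl or Mrps followed by a digit, which gave 77 of the 12339 genes listed. Of the 78 protein-coding genes with such symbols in the mouse annotation used here (GENCODE M21), only Mrpl36 had no row in the count table. All 77 members passed the filter on low counts, as did every gene of the table. Mrps36 carries a member's symbol and is counted among the 77, although its protein is now assigned to the oxoglutarate dehydrogenase complex.

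The study collected elicited macrophages from wild-type mice (WT) and from mice labelled meKO, read as a myeloid loss of protein kinase C epsilon (gene Prkce) because the series title names that kinase. The Cre driver was not given in the sources used here. All animals, in every group, received AAV8PCSK9 at 8 weeks of age, a virus used here to deplete the LDL receptor from liver cells, so the chow groups carry it too. Animals then ate a high-fat Western diet (HFD) or stayed on chow, and sterile thioglycolate drew macrophages into the peritoneum 4 weeks later. The 4 groups were therefore WT on chow, WT on HFD, meKO on chow and meKO on HFD, with 3 libraries each and 12 in all. The labels speak of 8 animals per genotype, 4 of them on HFD, but do not tie libraries to animals. Replicate spread is taken as the spread between libraries and may in part be technical.

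Mitochondrial ribosomes translate the few messenger RNAs of the mitochondrial genome, all of which code for subunits of the respiratory chain and the ATP synthase. Their ribosomal RNAs come from the mitochondrial genome, whereas every ribosomal protein is encoded in the nucleus, made in the cytosol and imported. Some of these proteins have a bacterial counterpart, and others exist only in mitochondrial ribosomes. The Mrpl and Mrps symbols name the large and the small subunit, with exceptions: Mrps18a and Mrps30 belong to the large one.

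Total counts per library ran from 25844958 to 37282772, and the members together took 0.159% to 0.271% of them. Prkce, on chromosome 17, had 4.27, 4.44 and 2.35 CPM (counts scaled to the library's size) in WT on chow, 2.01, 2.89 and 2.53 in WT on HFD, 1.42, 0.950 and 1.62 in meKO on chow and 1.78, 0.954 and 1.51 in meKO on HFD. Every meKO library lay below every WT library, but the difference did not pass on chow (-1.47 on the log2 scale, SE 0.31, edgeR adjusted p = 0.079) or on HFD (-0.80, adjusted p = 0.99). All 8 macrophage markers were listed, and 7 of them summed to 4969 to 6231 CPM in every library. The other, Lyz2, had 30482 to 53835 CPM in WT and 16293 to 21309 CPM in 5 meKO libraries, but 69.3 CPM in meKO chow library 2. That library's member levels sat with those of the other meKO chow libraries (median deviation -0.01 on the log2 scale, against 0.01 and -0.13). Among markers of other peritoneal cells, summed levels over the 12 libraries were 57.0 to 353 CPM for mast cells, 140 to 200 CPM for neutrophils, 51.9 to 163 CPM for B cells (5 of 6 listed), 39.5 to 112 CPM for mesothelium and fibroblasts, 13.2 to 52.9 CPM for eosinophils (2 of 5 listed), 1.15 to 42.6 CPM for red cells (3 of 5 listed) and 7.47 to 17.0 CPM for T and NK cells (7 of 8 listed).

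Levels among members spanned from Mrpl23, with a mean of 1.75 CPM, to Mrpl33, with 71.9 CPM. The median member had 24.8 CPM, beside 18.4 CPM for all genes, with 13 members over 40 CPM and 7 under 10 CPM. Per kilobase of transcript, the highest levels were those of Mrpl33 (150 CPM per kb), Mrps21 (129), Mrpl20 (98.2) and Mrpl30 (78.4), all encoding proteins with bacterial counterparts. The lowest were Mrps5 (2.03 CPM per kb), Mrpl23 (2.52), Mrpl47 (3.36) and Mrpl57 (4.09). Levels per kilobase thus differed widely among genes whose proteins sit in 1 and the same particle. Mrpl23 rested on 30 to 80 counts per library, and no other member fell below 98 counts. Processed pseudogenes named for Mrpl23, Mrpl48 and Mrps36 exist, and how reads shared with them were counted is not given in the sources used here.

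Members moved together across the libraries. Each member's log2 CPM was set against its own mean over the 12 libraries, and the median of these deviations was taken over the 77 members. In WT on chow the medians were -0.50, -0.46 and -0.09, and in WT on HFD they were 0.10, 0.06 and 0.29. In meKO on chow they were 0.01, -0.01 and -0.13, and in meKO on HFD 0.02, 0.48 and 0.20. The lowest libraries were therefore WT chow 1 and 2, which held the lowest value of 47 and 29 members. The highest was meKO HFD 2, which held the highest value of 65 members. As group means, WT on chow stood at -0.35 ± 0.22 (SD, n = 3), meKO on chow at -0.04 ± 0.08, WT on HFD at 0.15 ± 0.12 and meKO on HFD at 0.23 ± 0.23. On chow, WT chow 1 and 2 lay below all meKO libraries and WT chow 3 lay among them, while on HFD the genotypes interleaved. In bulk RNA, fewer cells of a type and less RNA per cell cannot be told apart.

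**Figure D1:**
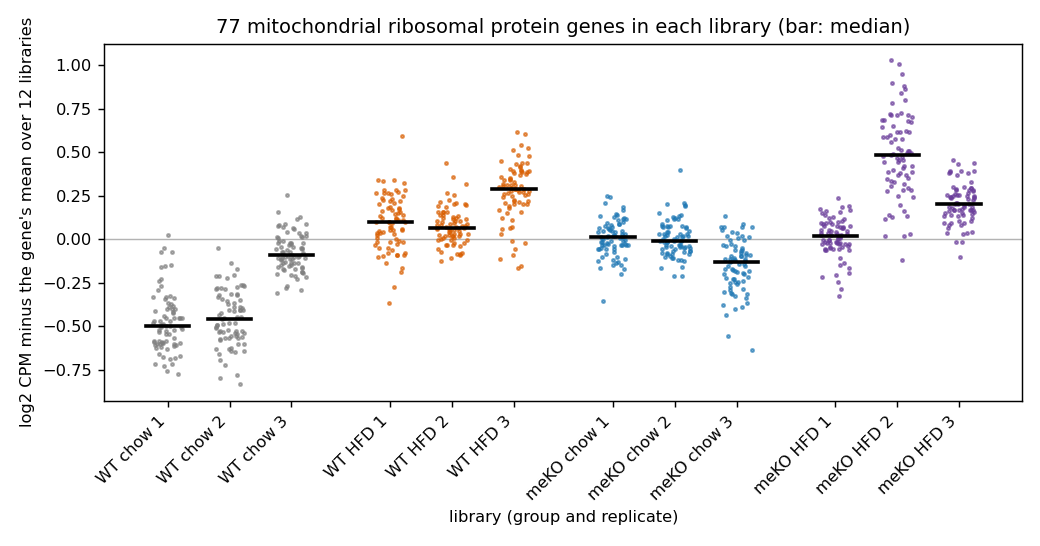
Deviation of each of the 77 members from its own mean over 12 libraries (y axis, log2 CPM), by library (x axis), coloured by group; dots are genes and black bars the library's median. WT chow 1 and 2 are lowest, at -0.50 and -0.46, and meKO HFD 2 is highest, at 0.48.

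Over the 2926 pairs of members, Pearson's r of log2 CPM across the 12 libraries had a median of 0.88 and was positive in 97.5% of pairs. These points share libraries and depth, so the value is a description. Mrps14, Mrps12 and Mrpl17 followed the mean of the other members most closely, each with r of 0.99. Mrpl44 was the only member with a negative r, -0.30, followed by Mrps6 (0.32) and Mrps9 (0.53). After removal of a smooth trend on transcript length and GC content from each library (the length and GC correction below), the median r fell to 0.54.

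The comparison of HFD with chow in WT asked how the hypercholesterolemic diet changed these genes where the kinase was intact. On HFD, 38 of 77 members rose and none fell at an adjusted p under 0.05 (edgeR's quasi-likelihood test, adjusted over all genes), while 9.50% of all genes rose. The median log2 fold change was 0.51 over the members and -0.03 over all genes, and 75 of 77 members had a positive value. In 59 of 77 members the 3 HFD libraries all lay above the 3 chow libraries, as did 19.4% of all genes. Among those that rose, log2 fold changes ran from 0.39 (Mrps7) to 0.84 (Mrpl20), or 1.31-fold to 1.79-fold. Summed mesothelium and fibroblast markers (all 7 listed) were also higher on HFD. In WT they ranged from 39.5 to 62.3 CPM on chow and from 68.2 to 94.0 CPM on HFD. In meKO the ranges were 42.5 to 67.2 CPM and 79.2 to 112 CPM. Within WT on chow, WT chow 3 had the lowest sum and the highest member median (-0.09). Over all 12 libraries, meKO HFD 2 had both the highest sum (112 CPM) and the highest member median (0.48). Of these markers Dcn and Krt19 passed in WT. Cycling markers (all 7 listed) summed to 139.6 to 148 CPM on chow and 167 to 194 CPM on HFD in WT, and their ranges overlapped in meKO. Pcna made up most of that sum in WT (94.4 to 97.7 CPM on chow, 126 to 141 CPM on HFD) and was the only one passing. Mki67 (log2 fold change -0.61, all HFD libraries below chow) and Top2a (-0.28) went the other way in WT without passing. The part of either set of markers in the members' change was not tested. The large subunit had 27 of 50 members that rose (median log2 fold change 0.49) and the small subunit 11 of 26 (median 0.52).

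Of the large-subunit proteins with bacterial counterparts, 15 of 29 rose. Mrpl3, a core protein of the large subunit, had 31.7, 45.04 and 54.3 CPM in WT on chow and 78.6, 70.6 and 79.2 CPM in WT on HFD. It had the smallest p among members, and its change was 0.80 on the log2 scale (SE 0.16, edgeR adjusted p = 0.011). Genes near it on chromosome 9 also differed between the WT groups, with values given further on, and whether Mrpl3 moved with them, or with a difference in genetic background between the animals, was not tested. All 3 HFD libraries lay above the chow libraries, which themselves differed by more than the HFD ones. Mrpl35 had 14.5, 16.3 and 22.1 CPM on chow and 26.7, 28.9 and 32.4 CPM on HFD, 0.73 higher on the log2 scale (SE 0.17, adjusted p = 0.016). Mrpl20 rose from 32.4 ± 6.74 CPM to 58.1 ± 6.80 CPM (SD, n = 3; log2 fold change 0.84, SE 0.20, edgeR adjusted p = 0.018). Mrpl12, the stalk protein that also binds the mitochondrial RNA polymerase, had 15.7, 14.2 and 18.3 CPM on chow and 26.7, 25.5 and 30.1 CPM on HFD (log2 fold change 0.77, SE 0.19, edgeR adjusted p = 0.019). In these 4 genes the groups did not overlap, and WT chow 3 was the chow library closest to HFD. Mrpl32, a protein that is cut by the mitochondrial AAA protease before assembly, rose by 0.56, and Mrpl34 by 0.59 on the log2 scale.

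Among the 21 large-subunit proteins found only in mitochondria, 12 rose. Mrpl37 changed by 0.44 (SE 0.11) and Mrpl42 by 0.70 (SE 0.18) on the log2 scale. Mrpl58, a peptidyl-tRNA hydrolase built into the ribosome, rose by 0.44 (adjusted p = 0.047). Mrps18a had a log2 fold change of 0.32 (edgeR adjusted p = 0.10) and Mrps30 one of 0.21 (adjusted p = 0.22), so neither of these large-subunit genes with small-subunit names passed.

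In the small subunit, 7 of 16 members with a bacterial counterpart and 4 of 10 without one rose. Mrps12, a protein of the decoding centre, had 9.28, 8.82 and 12.9 CPM on chow and 15.9, 14.6 and 17.8 CPM on HFD (log2 fold change 0.64, SE 0.17, edgeR adjusted p = 0.024). Mrps18c had 29.5, 32.8 and 42.7 CPM on chow and 55.1, 54.8 and 63.2 CPM on HFD, a log2 fold change of 0.72 (adjusted p = 0.020). Its paralogue Mrps18b had a value of 0.63 that did not pass (adjusted p = 0.054), with WT HFD 1 at 5.47 CPM inside the chow range of 4.64 to 5.69 CPM. Mrps17 changed by 0.71 and Mrps34 by 0.51 on the log2 scale. Mrps36, the subunit of another complex, had 0.36 (adjusted p = 0.20).

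**Figure D2:**
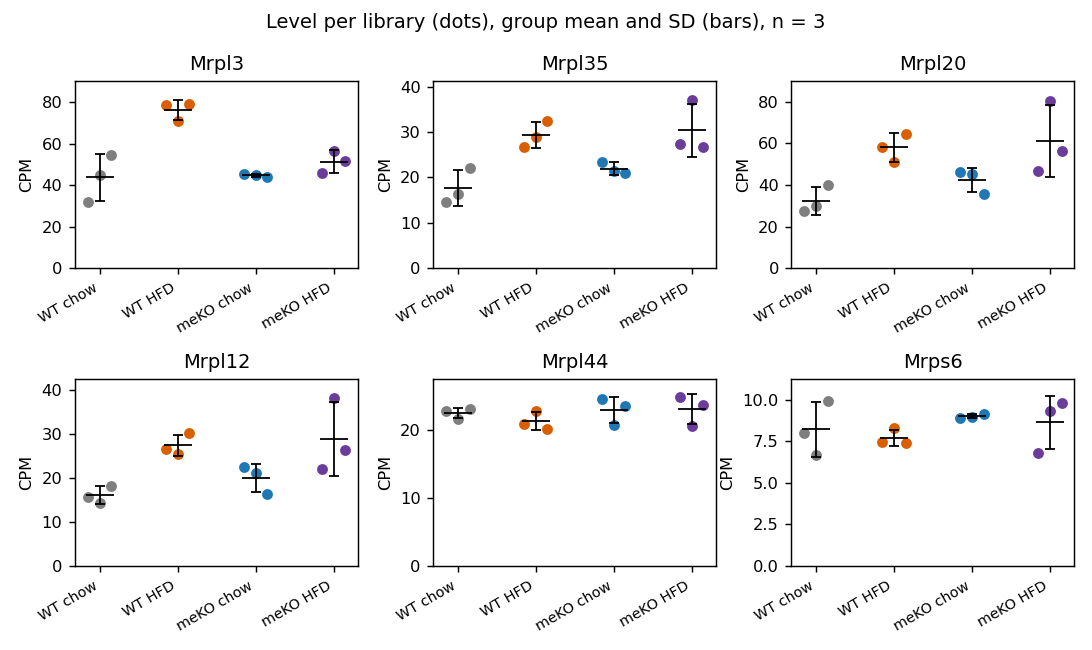
CPM of 6 members (y axes) in the 4 groups (x axes); dots are the 3 libraries, the long mark is the group mean and the whisker its SD. Mrpl3, Mrpl35, Mrpl20 and Mrpl12 are higher in all WT HFD libraries than in all WT chow libraries, while Mrpl44 and Mrps6 overlap.

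These calls rested on few libraries. Without WT chow 1, or without WT chow 2, 1 member passed, which was Mrpl3 in each case, and without WT HFD 3 none did. Without WT HFD 1, 3 members passed, and without WT chow 3, 67 did. The share of all genes that rose moved in the same way, to 0.365%, 0.794%, 0.316%, 1.5% and 18.9%. The members' median log2 fold change stayed between 0.43 and 0.64 when any 1 library was left out. Without WT chow 1 and 2 together, a setting chosen after seeing the data, it was 0.24 and no member passed.

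**Figure D3:**
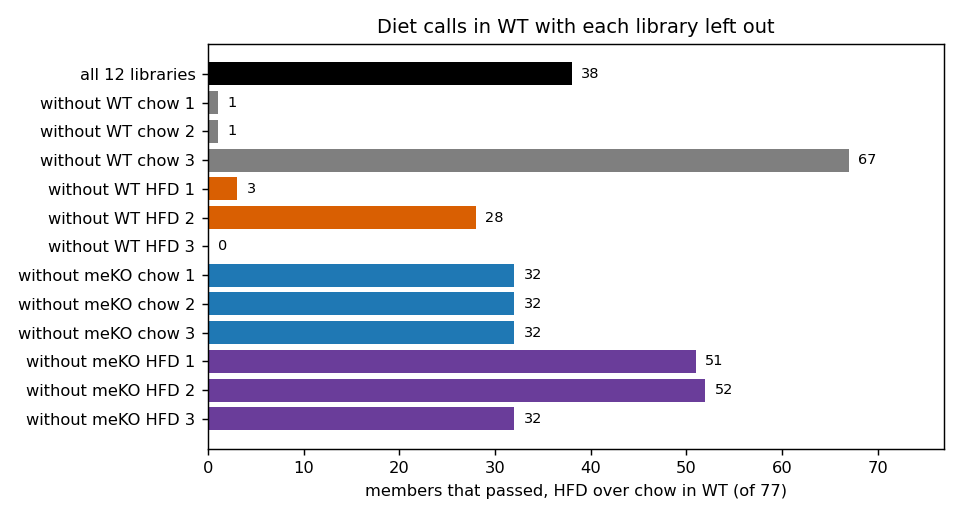
Number of members that passed for HFD over chow in WT (x axis, of 77) when each library is left out (y axis), coloured by the left-out library's group; the black bar has all 12 libraries. The count is 38 with all libraries and between 0 and 67 otherwise, and leaving out a meKO library gives 32 to 52.

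Transcript length went with the diet values. Members are short, with a median annotated length of 1226 nt against 2651 nt for all genes with a length, and 29 of 77 were at most 1000 nt long against 8.59% of all genes. WT chow 1 and 2 were the libraries whose deviations over all genes followed length most (Spearman's rho 0.63 and 0.67, against -0.47 to 0.14 in the other 10). Across members, the diet change in WT ran against length with a rho of -0.39 over 77 genes that share their libraries, and across all genes with one of -0.57. With the length and GC correction, 25 of 77 members rose, against 7.97% of all genes, and the median log2 fold change was 0.26, against 0.02 for all genes. Of these 25, 21 were also among the 38; the other 4 were Mrpl39, Mrps5, Mrpl19 and Mrps35, which were named after their values were seen and are all over 2000 nt long. Of the 29 members of at most 1000 nt, 18 rose as counted and 4 after correction. Of the 20 over 2000 nt, 9 rose as counted and 13 after it. The correction left a rho of 0.52 between length and the members' change, and the same correction with each gene's shortest transcript, chosen after seeing the data, left 37 members. How much of the diet change in WT goes with length was not tested beyond these values.

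**Figure D4:**
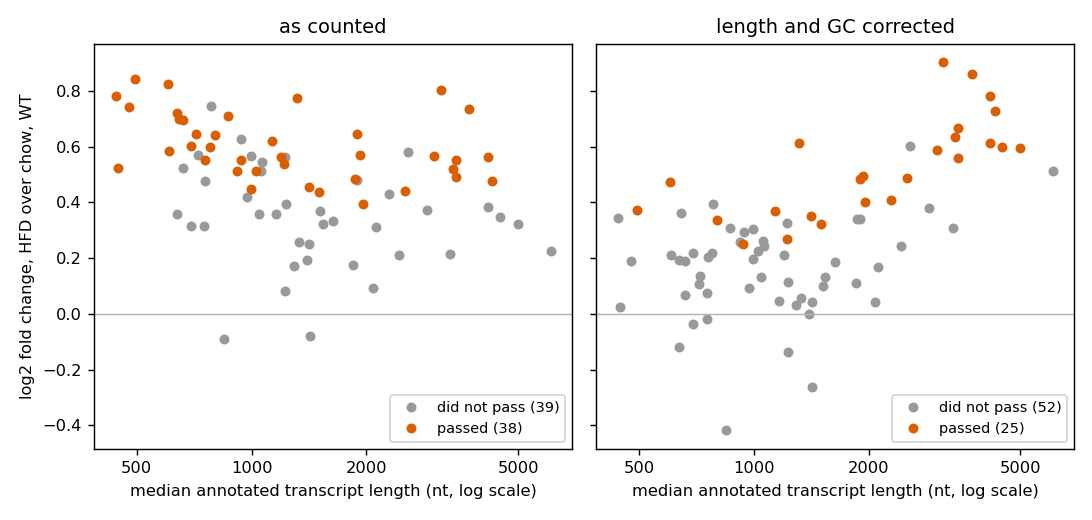
Log2 fold change of each member for HFD over chow in WT (y axis) against its median annotated transcript length (x axis, nt, log scale), as counted (left) and after the length and GC correction (right); orange genes passed. As counted 38 members passed and after correction 25, and the longest members have higher values on the right than on the left.

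After correction Mrpl3 had a log2 fold change of 0.90, Mrpl35 of 0.86, Mrpl12 of 0.61, Mrpl32 of 0.59, Mrpl20 of 0.37, Mrps12 of 0.34 and Mrpl37 of 0.32, and all 7 still passed. Mrps18c (0.19), Mrpl42 (0.19), Mrpl34 (0.21), Mrps34 (0.26) and Mrps17 (0.31) no longer did. The latter 5 are short transcripts, of 607 to 918 nt.

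In meKO, HFD against chow gave no call among the members with edgeR, DESeq2 or limma-voom, and 0.105% of all genes passed in either direction. Even so, 74 of 77 members had a positive value, the median log2 fold change was 0.28 (all genes -0.01), and 28 of 77 had an unadjusted p under 0.05, as did 1962 of all 12339 genes. In 30 members the HFD libraries all lay above the chow libraries, against 10.3% of all genes. In 1, Mrps9, they all lay below, against 9.38% of all genes. The smallest p values were those of Mrpl55, Mrpl52 and Mrpl42, all of the large subunit. Mrpl55 had 11.4, 11.97 and 10.1 CPM on chow and 13.7, 19.7 and 15.8 CPM on HFD (log2 fold change 0.55, edgeR adjusted p = 0.19). Mrpl52 (0.72, adjusted p = 0.20) and Mrpl42 (0.59, adjusted p = 0.21) were likewise highest in meKO HFD 2. Without that library the members' median in meKO was 0.15, and without meKO HFD 1 it was 0.38. Without meKO chow 2, the library with little Lyz2, it was 0.30, and with the length and GC correction it was 0.17.

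Set side by side, all 38 members that rose in WT had a positive value in meKO, and 37 had a smaller one there; their medians were 0.57 and 0.35. Because the 38 were chosen for their WT values, this order is a description. Over all 77, 72 had the smaller value in meKO. The exceptions were Mrpl44, Mrpl55, Mrps6, Mrps2 and Mrps11. The difference itself was tested as the interaction of genotype and diet, in which no member passed with edgeR, DESeq2 or limma-voom (0.0162% of all genes passed) and 1, Mrpl3, had an unadjusted p under 0.05. The median interaction over the members was -0.19 on the log2 scale (all genes 0.02), and it was 0.063 without WT chow 1 and 2 together. The 3 smallest p values belonged to Mrpl3 (-0.61, SE 0.22, edgeR adjusted p = 0.77), Mrps9 (-0.35, adjusted p = 0.80) and Mrpl34 (-0.43, adjusted p = 0.80). With limma-voom and library quality weights, Mrpl3 and Mrps9 passed.

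**Figure D5:**
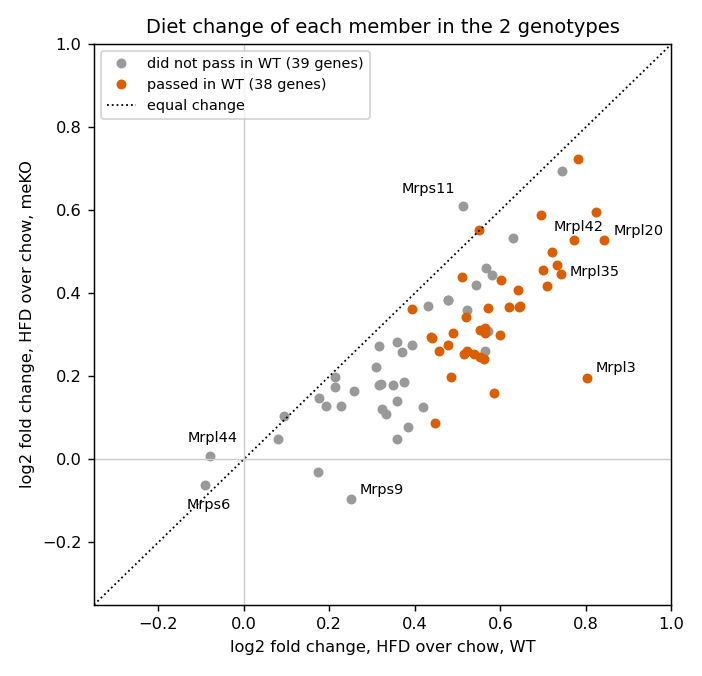
Log2 fold change for HFD over chow of each member in WT (x axis) and in meKO (y axis); orange genes passed in WT, and the dotted line marks equal change. Of the 77 members, 72 lie below the line and Mrpl3 is the farthest from it.

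Averaged over both genotypes, 55 of 77 members rose on HFD and none fell, against 14.9% of all genes that rose. After the length and GC correction, 40 rose, against 12.7% of all genes, and 1, Mrps6, fell by 0.35. Without WT chow 1 and 2 together, no member passed.

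The genotype comparison on chow asked whether meKO and WT macrophages differed in animals that stayed on chow. No member passed with edgeR (0.0810% of all genes did), 1 passed with DESeq2 (1.3% of all genes were higher there), and 16 of 77 had an unadjusted p under 0.05, as did 2447 of all 12339 genes, a like share. All 77 members had a positive value, with a median log2 fold change of 0.27 (all genes 0.00). In 20 members the meKO libraries all lay above the WT libraries, against 8.87% of all genes. The smallest p belonged to Mrpl38, a large-subunit protein found only in mitochondria, with 13.2, 12.6 and 16.1 CPM in WT and 20.3, 20.4 and 16.3 CPM in meKO (log2 fold change 0.45, SE 0.14, edgeR adjusted p = 0.13). Mrpl34 (0.48, adjusted p = 0.13) and Mrpl21 (0.44, adjusted p = 0.15) followed, and in all 3 genes the groups did not overlap. This comparison shares its WT chow libraries with the diet comparison in WT, and it depended on WT chow 3: without it, 26 members passed, all higher, against 7.95% of all genes. With library quality weights 51 passed, all higher, against 15% of all genes, while without WT chow 1 and 2 together none did and the median was 0.04. Without meKO chow 2, the library with little Lyz2, the median was 0.26. With the length and GC correction the median was 0.14 and no member passed.

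On HFD, meKO and WT did not differ in any member with edgeR, DESeq2 or limma-voom at an adjusted p under 0.05, and 0.0810% of all genes passed. An unadjusted p under 0.05 was found for 2 of 77 members, Mrpl3 and Mrps11, and for 563 of all 12339 genes. The median log2 fold change was 0.10 (all genes 0.02), and without meKO HFD 2 it was -0.06. In 2 members, Mrpl10 and Mrps11, all meKO libraries lay above WT (5.45% of all genes), and in Mrpl3 all lay below (4.85% of all genes). Mrps11, of the small subunit, had 19.5, 19.2 and 21.4 CPM in WT and 22.5, 39.6 and 25.6 CPM in meKO (log2 fold change 0.54, SE 0.20, edgeR adjusted p = 0.94). Mrpl38 had a value of 0.25 (adjusted p = 0.999). Averaged over diets, no member passed for genotype with edgeR (0.170% of all genes did), 2 did with DESeq2 (1.18% of all genes were higher there), and 18 of 77 had an unadjusted p under 0.05, as did 2183 of all 12339 genes.

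Mrpl3 was the member with the largest distance between genotypes on HFD, in the direction opposite to most. It had 45.7, 56.5 and 51.5 CPM in meKO on HFD against 70.6 to 79.2 CPM in WT on HFD, which is -0.57 on the log2 scale (SE 0.16, edgeR adjusted p = 0.47). In meKO on chow it had 45.4, 44.97 and 43.7 CPM. The gene lies on chromosome 9, from 105053239 to 105079888 on the plus strand (mm10). Of the 10 genes called for genotype on HFD, 8 had a position, and 6 of these lay within 10 Mb of Mrpl3, a window holding 158 listed genes. The nearest of them, Nudt16, starts 0.0758 Mb from Mrpl3 and had 93.1, 94.4 and 94.7 CPM in WT on HFD, 17.6, 53.5 and 61.6 CPM in WT on chow, and 19.0 to 23.9 CPM in the 6 meKO libraries. Mrpl3 and Nudt16 thus had the same order of the 3 WT chow libraries, with WT chow 1 lowest. This order was not particular to chromosome 9. The medians over all members had it too (-0.50, -0.46 and -0.09), as did Mrpl35 and Mrps18c on other chromosomes, although Mrpl12 and Mrps12 did not. The shared order therefore cannot tell whether Mrpl3 moved with its neighbours. Rpl29, which encodes a cytosolic ribosomal protein and starts 1.38 Mb away, had 6.51 to 6.89 CPM in WT on HFD, 67.2 to 130 CPM in WT on chow and 171 to 322 CPM in meKO. Whether the values of Mrpl3 go with those of this stretch of chromosome 9 was not tested. Mrps22 and Mrpl4, the other members on chromosome 9, had genotype values of 0.08 and 0.02 on HFD.

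A few members stayed apart from the rest. Mrpl44, whose protein has an RNase III fold, had 22.9, 21.7 and 23.2 CPM in WT on chow and 21.0, 22.9 and 20.2 CPM in WT on HFD (log2 fold change -0.08, SE 0.11, edgeR adjusted p = 0.62). Its level in the 6 meKO libraries was 20.7 to 24.9 CPM, so the 4 groups overlapped. Mrps6 had 6.70 to 9.95 CPM over all libraries and a diet value of -0.09 in WT. Its annotated exons overlap those of Gm49711 over 36.1% and those of Slc5a3 over 18.8% of their bases, both on the same strand. Mrps9 had 25.6, 24.7 and 31.8 CPM in WT on chow and 34.95, 32.9 and 29.7 CPM in WT on HFD, and in meKO its HFD libraries (27.9 to 30.4 CPM) lay below its chow libraries (30.6 to 31.8 CPM). Exons of other members also overlap those of a neighbour. The most is in Mrpl53, whose exons lie wholly within those of the predicted gene Gm42688 on the same strand. Mrps18b (59.1% with Gm16279) and Mrps25 (58.2% with Nr2c2) follow, both with a neighbour on the opposite strand.

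The other genes of mitochondrial translation, a list of 76 genes of which 73 had a row in the table, were read beside the members. On HFD in WT, 8 of 73 rose and none fell (9.50% of all genes rose), with a median log2 fold change of 0.08. Of the 5 subunits that carry other symbols, 4 rose: Aurkaip1 (0.76, edgeR adjusted p = 0.014), Chchd1 (0.74), Gadd45gip1 (0.60) and Dap3 (0.44, adjusted p = 0.019). Aurkaip1 had 41.5, 42.1 and 58.7 CPM in WT on chow and 79.97, 77.5 and 83.7 CPM on HFD, with no overlap. Ptcd3, the fifth, had a value of 0.02. Among 27 assembly factors with a row, 2 rose, Mtg1 (0.45), a GTPase of large-subunit assembly, and Mterf3 (0.49). Of 16 translation factors, 1 rose, the ribosome recycling factor Mrrf (0.47). The elongation factor Tufm had -0.20 (adjusted p = 0.30). Of 25 genes for mitochondrial transcription and RNA, 1 rose, Slirp (0.78, adjusted p = 0.038), which binds mitochondrial messenger RNAs with Lrpprc (-0.29, adjusted p = 0.090). Tfam, which packages mitochondrial DNA, had 0.03, and the mitochondrial RNA polymerase Polrmt had -0.21. With the length and GC correction, 8 of the 73 rose and 2 fell, the latter being Tfam (-0.42, adjusted p = 0.042) and the assembly GTPase Gtpbp10 (-0.54, adjusted p = 0.031). Chchd1, Dap3, Mterf3 and Slirp no longer passed.

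Of 9 nuclear regulators of mitochondrial genes, none rose and 1 fell on HFD in WT. Pprc1, a coactivator related to PGC-1, had 17.2, 15.6 and 11.9 CPM on chow and 8.67, 10.1 and 9.17 CPM on HFD (log2 fold change -0.68, SE 0.17, edgeR adjusted p = 0.022). The groups did not overlap, and with the length and GC correction the value was -0.24 and did not pass. Nrf1 (-0.10), Gabpa (-0.11), Yy1 (-0.15) and Myc (0.14) did not pass, nor did Ppargc1b (-0.86, adjusted p = 0.069), which had a mean of 1.04 CPM. For diet in meKO, and for genotype on either diet, no gene of the 73 or of the 9 passed with edgeR. An unadjusted p under 0.05 was found for 7 of the 73 for diet in meKO, 5 for genotype on chow and 2 for genotype on HFD, and for 0, 1 and 1 of the 9 regulators. Over all 12339 genes these counts were 1962, 2447 and 563, so the 73 lay below or near the background.

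Cytosolic ribosomal protein genes and respiratory chain genes were compared in the same way, from the same fit. On HFD in WT, 12 of 83 cytosolic ribosomal protein genes rose and 1, Rpl29, fell (median log2 fold change 0.47). Of 82 respiratory chain and ATP synthase genes, 52 rose (median 0.62), while 9.50% of all genes rose. After the length and GC correction the counts that rose were 2 and 25, with medians of 0.13 and 0.25. For the members they were 25 of 77 and 0.26, and 7.97% of all genes rose. In meKO none passed in any of the 3 sets with edgeR. An unadjusted p under 0.05 was found there for 21 of 83, 35 of 82 and 28 of 77 genes, and for 1962 of all 12339 genes. The medians in meKO were 0.36, 0.36 and, for the members, 0.28. No test of the difference between the sets was made.

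The promoter windows of some members that rose on HFD in WT, and of Mrpl44, which did not, are shown. The reason is that short motifs in them are known from genes for mitochondrial proteins. RefSeq windows had 300 bases, from 250 before to 50 after each start (GRCm38.p6, the assembly of mm10). They were matched by gene identifier for 68 of the 77 members. Motif matches are in capitals: CCGGAAG or its complement CTTCCGG for the ETS factor GABPA, AAGATGGC or GCCATCTT for YY1, and the E-box CACGTG. Each is written 5′ to 3′ on the gene's own strand.
Mrps18c, chr5:100798509-100798808, plus strand: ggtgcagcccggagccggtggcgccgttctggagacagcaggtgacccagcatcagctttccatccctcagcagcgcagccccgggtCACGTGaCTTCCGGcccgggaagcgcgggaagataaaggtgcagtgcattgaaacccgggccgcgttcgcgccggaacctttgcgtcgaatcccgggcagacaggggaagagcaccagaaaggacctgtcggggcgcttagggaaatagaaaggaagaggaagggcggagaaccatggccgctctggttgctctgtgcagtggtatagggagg
Mrpl35, chr6:71823735-71824034, minus strand: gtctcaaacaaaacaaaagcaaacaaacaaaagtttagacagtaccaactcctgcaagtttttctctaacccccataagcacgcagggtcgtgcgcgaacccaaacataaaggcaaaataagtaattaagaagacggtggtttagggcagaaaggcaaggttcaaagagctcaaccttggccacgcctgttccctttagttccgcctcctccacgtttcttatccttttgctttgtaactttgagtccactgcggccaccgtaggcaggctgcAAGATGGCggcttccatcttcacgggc
Mrps12, chr7:28741772-28742071, minus strand: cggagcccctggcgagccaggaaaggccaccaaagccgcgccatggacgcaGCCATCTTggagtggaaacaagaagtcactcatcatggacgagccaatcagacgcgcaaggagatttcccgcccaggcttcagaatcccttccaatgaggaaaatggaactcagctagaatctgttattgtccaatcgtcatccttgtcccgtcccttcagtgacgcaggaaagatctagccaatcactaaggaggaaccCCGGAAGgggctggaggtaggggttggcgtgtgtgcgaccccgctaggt
Mrpl3, chr9:105053018-105053317, plus strand: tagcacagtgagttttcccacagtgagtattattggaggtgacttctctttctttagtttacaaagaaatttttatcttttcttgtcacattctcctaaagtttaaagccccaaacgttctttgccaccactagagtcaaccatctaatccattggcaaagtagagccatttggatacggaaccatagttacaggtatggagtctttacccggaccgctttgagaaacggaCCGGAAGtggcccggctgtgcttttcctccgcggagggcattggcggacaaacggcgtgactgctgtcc
Mrpl44, chr1:79775768-79776067, plus strand: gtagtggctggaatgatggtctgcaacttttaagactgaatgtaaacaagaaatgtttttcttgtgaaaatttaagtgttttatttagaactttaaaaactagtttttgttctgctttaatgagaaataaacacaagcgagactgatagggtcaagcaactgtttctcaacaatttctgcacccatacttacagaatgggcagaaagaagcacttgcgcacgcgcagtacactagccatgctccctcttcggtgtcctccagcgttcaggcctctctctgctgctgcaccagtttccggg
Mrps18c has an E-box and an ETS match a base apart, Mrpl35 a YY1 match just after its start, and Mrps12 matches for both YY1 and ETS. Mrpl3 has an ETS match, and Mrpl44 none of these. The windows of Mrpl12 and Mrps17, which also rose on HFD in WT, have none of these either.

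Over all 68 members, 38.2% had the ETS motif on either strand, against 20.9% of the 9553 listed genes and 9.93% of all 27025 genes with a window. The YY1 motif was in 16.2% of members, 5.57% of listed genes and 3.19% of all genes. GCATGCGC, a short form of the NRF1 site, was in 11.8%, 6.09% and 3.05%, and the E-box in 5.88%, 12% and 8.09%. Among members with a window, the ETS motif was in 16 of the 35 that rose on HFD in WT and in 10 of the 33 others, and the YY1 motif in 6 and 5. The short NRF1 form was in 3 and 5, and the E-box in 4 and 0. These are counts of letters, and no match says only that these letters are not in the window.

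Several members start head to head with another gene. With starts at most 1000 bases apart, Mrpl46 of the large subunit and Mrps11 of the small subunit face each other over 42 bases on chromosome 7. On HFD in WT, Mrpl46 rose by 0.62 (edgeR adjusted p = 0.026), and Mrps11 had 0.51 (adjusted p = 0.076). Among other such partners, Psma2, a proteasome subunit facing Mrpl32, rose by 0.62, and Ndufb5, a complex I subunit facing Mrpl47, rose by 0.58. Gga3, facing Mrps7, fell by 0.90, and Tmem63b, facing Mrpl14, fell by 0.53, although Mrps7 and Mrpl14 rose by 0.39 and 0.70. With the length and GC correction, Ndufb5 (0.10, adjusted p = 0.38), Tmem63b (-0.26, adjusted p = 0.11) and Mrpl14 (0.36, adjusted p = 0.052) no longer passed. As counted, neighbours with facing starts thus changed in the same direction in some pairs and in opposite directions in others.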

How the data were processed

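RNA-seq counts per gene were analysed for 12 libraries of elicited mouse macrophages, in 4 groups of 3. The authors deposited one table of whole-number counts per gene, made from alignments per the file headers; Trizol RNA and TruSeq libraries are named per the labels' protocols. The submitters' processing notes name mm10 and DESeq2; aligner, counter and strand setting are not given in the sources used here. Members and gene lists were chosen with earlier results of these data known. All genes were tested together by the quasi-likelihood method of edgeR 4.0.16 (R 4.3.3): TMM scaling, a robust fit of 4 group means, tests of either direction and Benjamini-Hochberg adjustment over 12339 genes at 0.05. No pair of replicates looked like 1 library. Alternatives were other scalings and filters, DESeq2 1.42.0, limma-voom 3.58.1 with and without quality weights, a length and GC correction (mgcv 1.9.3 smooths per library, as offsets; GENCODE lengths), the 2 groups alone, and each library left out. Named members were, per comparison, up to 12 called with the smallest p, or the 3 smallest where fewer than 3 passed, the 4 highest and 4 lowest per kilobase, and a fixed few (Mrps18a, Mrps18b, Mrps18c, Mrps30, Mrps36, Mrpl12, Mrpl58, Mrps12); others were named after their values were seen. Scripts were tested on simulated data.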

Additional observations from a re-analysis of the deposited data

How the results depend on the processing

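The diet count in WT was 38 members, where 9.50% of all genes rose. It was 25 after correction for length and GC content, where 7.97% of all genes rose, and 69 with limma-voom and library quality weights. With 1 library left out it ran from 0 to 67. The diet count over both genotypes was 55, where 14.9% of all genes rose, and ran from 32 to 67 with 1 library left out. Genotype on chow gave 0 members, where 0.0810% of all genes passed. It gave 1 with DESeq2, 51 with quality weights and 0 to 26 with 1 library left out. Genotype over both diets gave 0, where 0.170% of all genes passed, and 2, 38 and 0 to 14 in the same settings. The share of all genes that passed moved between settings too, and it is not given here for every count. With quality weights, genotype on HFD and diet in meKO gave 1 member each and the interaction 2. The median interaction turned from -0.19 to 0.063 without WT chow 1 and 2 together. In each case the cause was not tested, beyond fewer libraries where some were left out. Diet in WT stayed at 30 to 53 under the other scalings, filters and tools and the 2 groups alone. No paired analysis was possible because the titles carry no replicate numbers, and the numbers used here only follow the order of the samples. Depth limits Mrpl23 most, at 30 counts in its lowest library.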
